A study of Mus musculus with 2 samples.

Results

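The collapsin response mediator proteins (CRMPs) are encoded by 5 genes, Crmp1, Dpysl2, Dpysl3, Dpysl4 and Dpysl5, and all 5 were found by symbol among the 45578 genes of a ribosome profiling table of the neonatal mouse brain. They were represented by 30 of its 109463 annotated transcripts, 17 of them protein coding. Ribosome profiling counts the short mRNA fragments, called footprints, that translating ribosomes shield from nuclease. The series held 2 samples of 1 group, control brains at postnatal day 5, taken as biological replicates from mice of the genotype Smn+/-; SMN2tg/0 on the FVB background. Every animal therefore carried 1 disrupted copy of mouse Smn and a human SMN2 transgene, and a brain without these alleles was not analysed here. Polysomes were isolated on a sucrose gradient from frozen, pulverised brain and digested with RNase I, and fragments of 25 to 35 nucleotides were kept.

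CRMPs are cytosolic phosphoproteins of growing neurons. They resemble the enzyme dihydropyrimidinase but lack its activity, and they assemble with each other into mixed tetramers. They were first described as relays of semaphorin 3A, a guidance cue that collapses growth cones, and they bind tubulin and actin. Phosphorylation by Cdk5 and Gsk3 weakens the hold of the Dpysl2 product on tubulin. In rodent brain the family is known for its high expression around birth, when axons and dendrites extend.

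The deposited counts summed to 1866831 footprints in replicate 1 and 5261878 in replicate 2, so replicate 2 was 2.82 times deeper. Levels are given as CPM, counts scaled to the size of the library, and between genes as CPM per kb of coding sequence. With 3 counts as the floor, a gene at 0 could have had up to 1.61 CPM in the first library and 0.570 CPM in the second. Intervals are Clopper-Pearson 95% intervals and, like the p-values, cover counting error only, not variation between libraries. PCR copies are not independent molecules. If such copies were counted, the intervals are too narrow even for counting error. The labelled tissue was checked against markers of neurons, of which all 8 for young and all 8 for mature neurons averaged 10 or more footprints. So did every marker of the glial, endothelial and red cell lists, so passing this count does not set neurons apart. Summed levels of the young neuron markers were 6470 CPM in replicate 1 and 4527 CPM in replicate 2, and those of the mature neuron markers 2296 and 2097 CPM. Astrocyte markers summed to 2158 and 2119 CPM, oligodendrocyte markers to 952 and 1164 CPM, microglial markers to 279 and 274 CPM, endothelial markers to 376 and 390 CPM, and red cell markers to 2487 and 1706 CPM. No marker of these lists was at 0 in both libraries.

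Together the CRMP genes held 11578 footprints in replicate 1 and 23970 in replicate 2. This was 0.620% of the first library and 0.456% of the second, a mean of 0.538% ± 0.116 (SD, n = 2). Among the 16427 genes that averaged 10 or more footprints, Dpysl3 ranked 9th by CPM, Crmp1 17th, Dpysl2 33rd, Dpysl5 39th and Dpysl4 524th. Of the family, only Dpysl4, at percentile 96.8, lay outside the 100 genes with the most footprints. Ranks by CPM favour long coding sequences. By CPM per kb of coding sequence, among the 13317 of these genes with a coding transcript, the ranks were lower. Dpysl3 was then 72nd, Crmp1 115th, Dpysl2 159th, Dpysl5 177th and Dpysl4 1263rd, at percentile 90.5.

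Dpysl3 (ENSMUSG00000024501), whose product is known from newborn neurons and binds actin as well as tubulin, had 3724 and 7837 footprints in replicates 1 and 2. This was a level of 1995 CPM (1931 to 2060) in the first and 1489 CPM (1457 to 1523) in the second, a mean of 1742 ± 357 CPM (SD, n = 2). Crmp1 (ENSMUSG00000029121), a mediator of semaphorin 3A and reelin signalling in migrating neurons, had 2961 and 6513 footprints. These counts gave 1586 CPM (1530 to 1644) and 1238 CPM (1208 to 1268), or 1412 ± 246 CPM. For both genes the level was lower in replicate 2, and the intervals of the libraries did not overlap.

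Dpysl2 (ENSMUSG00000022048) encodes the best studied member, which promotes microtubule assembly and axon formation. It had 2389 and 3844 footprints in replicates 1 and 2, at 1280 CPM (1229 to 1332) and 731 CPM (708 to 754), with a mean of 1005 ± 388 CPM. Dpysl5 (ENSMUSG00000029168), whose product restrains dendrite growth and is a target of paraneoplastic autoantibodies, had 1961 and 4365 footprints. Its levels were 1050 CPM (1004 to 1098) and 830 CPM (805 to 855), with a mean of 940 ± 156 CPM. The spread between the replicates was widest for Dpysl2, and the mean levels of Dpysl2 and Dpysl5 differed by less than that spread.

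Dpysl4 (ENSMUSG00000025478), known from dendrite branching of hippocampal neurons and as a target of p53, was the least translated member. It had 543 and 1411 footprints, at 291 CPM (267 to 316) and 268 CPM (254 to 283), and its mean was 280 ± 16.1 CPM. Its intervals overlapped, and both of its values lay below every value of the other members.

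Levels of different genes were compared per kb of coding sequence, using for each gene the coding transcript with the most footprints. These were Crmp1-002 with 2061 coding nucleotides, Dpysl2-001 with 1719, Dpysl3-001 with 2052, Dpysl4-001 with 1719 and Dpysl5-001 with 1695. Dpysl3-001 and Dpysl3-002 had the same summed count, and the longer of them was used. On this scale Dpysl3 had 972 CPM per kb in replicate 1 and 726 in replicate 2, a mean of 849 ± 174 (SD, n = 2). Crmp1 had 770 and 601 CPM per kb, a mean of 685 ± 120. Dpysl2 had 744 and 425 CPM per kb, a mean of 585 ± 226, and Dpysl5 had 620 and 489 CPM per kb, a mean of 555 ± 92.1. Dpysl4 had 169 and 156 CPM per kb, a mean of 163 ± 9.34. Per codon, replicate 1 held 5.44 footprints on Dpysl3 and 0.948 on Dpysl4.

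**Figure D1:**
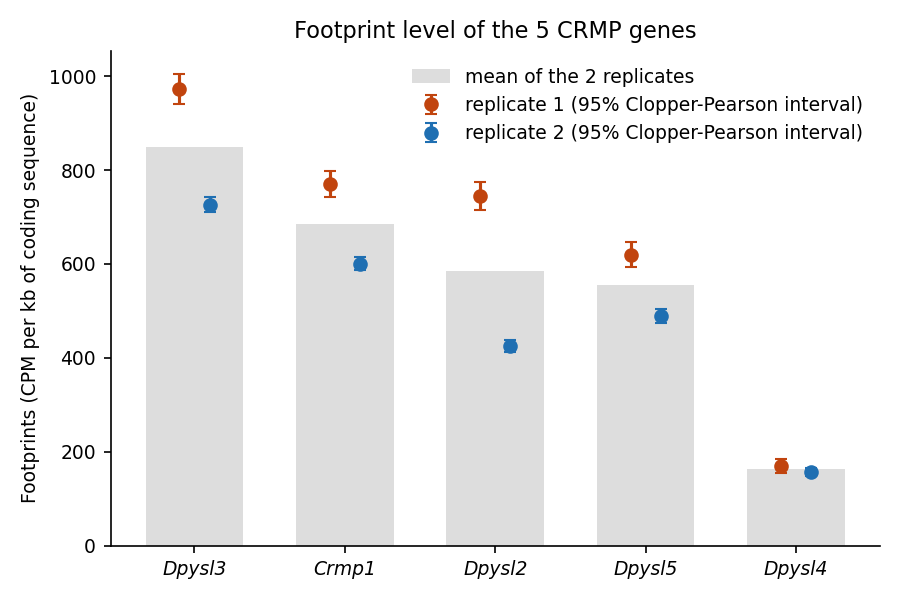
Footprint levels of the 5 CRMP genes in CPM per kb of coding sequence, ordered by the mean of 2 replicates. Grey bars are means, and points are single libraries with Clopper-Pearson 95% intervals of the count. Dpysl3 is highest at 849 and Dpysl4 lowest at 163, and Dpysl2 has the widest gap between the libraries.

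The order by mean was Dpysl3, Crmp1, Dpysl2, Dpysl5 and Dpysl4. Neighbours in this order overlapped in their replicate ranges except for Dpysl5 and Dpysl4, so neighbours among the first 4 were not separated beyond the spread, while the ranges of Dpysl3 and Dpysl5 did not overlap. Within each library, where depth and scaling cancel, the ratios were more precise. Dpysl3 was 1.26 times Crmp1 (1.20 to 1.33) in replicate 1 and 1.21 times (1.17 to 1.25) in replicate 2. Dpysl5 was 3.66 times Dpysl4 (3.33 to 4.04) in replicate 1 and 3.14 times (2.95 to 3.33) in replicate 2. Crmp1 and Dpysl2 could not be told apart in replicate 1, at a ratio of 1.03 (0.979 to 1.09), while Crmp1 was 1.41 times Dpysl2 (1.36 to 1.47) in replicate 2. Dpysl2 changed places with Dpysl5, being 1.20 times as high (1.13 to 1.28) in replicate 1 and 0.868 times as high (0.831 to 0.907) in replicate 2.

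With footprints of coding transcripts alone over the same coding lengths, a setting added after the data were examined, Dpysl2 at 585 CPM per kb came before Crmp1 at 557. Divided by whole transcript length, Crmp1 came first at 463 CPM per kb, before Dpysl3 at 318. Dpysl4 remained last in each of these orders.

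The make-up of the family does not depend on how the libraries are scaled. Dpysl3 held 32.2% of the family's footprints (31.3 to 33.02) in replicate 1 and 32.7% (32.1 to 33.3) in replicate 2. Crmp1 held 25.6% (24.8 to 26.4) and 27.2% (26.6 to 27.7), and Dpysl5 held 16.9% (16.3 to 17.6) and 18.2% (17.7 to 18.7). Dpysl4 held 4.69% (4.31 to 5.09) and 5.89% (5.59 to 6.19). The share of Dpysl2 was 20.6% (19.9 to 21.4) in replicate 1 and 16.04% (15.6 to 16.5) in replicate 2. It was the 1 member whose share was lower in replicate 2, and its intervals were the farthest apart.

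Genes with the most similar level were found by the summed absolute difference in log2 CPM per kb over the 2 replicates. For Dpysl3 they were H3f3b, a histone H3.3 gene, at a distance of 0.07, and Sncb, which encodes beta-synuclein, at 0.11. For Crmp1 they were the chaperone gene Hsp90ab1 at 0.04 and Atp5a1, a subunit of ATP synthase, at 0.05. Dpysl2 was nearest to Cfl1, which encodes the actin-severing protein cofilin, at 0.0021, with 745 and 425 CPM per kb, and to Cox6b1 at 0.05. Dpysl5 was nearest to Ndufb2 and Mdh2 at 0.09, and Dpysl4 to Phb and Vopp1 at 0.03. Over 2 samples such a distance describes the level and the replicate difference alone. Counts of H3f3b, which has near-identical relatives, are uncertain to that extent. So are those of Tubb3 and Ywhaz in the lists of related genes, and of the globin genes among the red cell markers.

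The members differed in how their footprints were spread over annotated transcripts. Dpysl2 had a single transcript in the table, Dpysl2-001, which held all of its 2389 and 3844 footprints. Dpysl3 had 6 transcripts, and its 5 coding ones held 99.8% of the footprints in replicate 1. Dpysl3-001, with a coding sequence of 684 codons, held 30.2% ± 0.0234 (SD, n = 2), Dpysl3-002, with 571 codons, 30.4% ± 0.593 and Dpysl3-003, with 569 codons, 25.8% ± 0.682. The non-coding Dpysl3-006 held 8 and 20 footprints, or 0.235% ± 0.0286. Dpysl3 was thus counted almost wholly on coding transcripts. For Dpysl2, whose single transcript is a coding one, the annotation allowed no other outcome.

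In Crmp1 the 5 retained-intron transcripts held 18.6% ± 0.0784 of the footprints. The complete coding transcripts were Crmp1-002, with 687 codons and 31.6% ± 0.997, and Crmp1-003, with 573 codons and 30.1% ± 0.0799. Of Dpysl5 footprints, 28.0% ± 1.54 lay on its 4 non-coding transcripts, of which the retained intron Dpysl5-007 held 11.8% ± 0.228. The coding transcripts Dpysl5-001 and Dpysl5-002 held 33.0% ± 0.239 and 33.3% ± 1.55.

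Dpysl4 had the largest non-coding part. Its retained-intron transcripts Dpysl4-002 and Dpysl4-003 held 22.2% ± 1.64 and 22.4% ± 0.612, as much as the coding transcripts Dpysl4-001 at 23.6% ± 2.26 and Dpysl4-004 at 21.7% ± 0.480. In all, non-coding transcripts took 47.3% of its footprints (43.1 to 51.6) in replicate 1 and 49.7% (47.04 to 52.3) in replicate 2. The median over the 13317 genes with a coding transcript was 9.26%, and Dpysl4 lay at percentile 88.6 of them, Dpysl5 at 71.2 and Crmp1 at 60.7. Genes without an annotated non-coding transcript are at 0 by construction, and Dpysl2, which is such a gene, lay at percentile 40.4. The percentiles thus depend on the annotation as well as on the footprints. Retained-intron transcripts contain exons of the coding ones, so these footprints can come from shared exons, and their origin was not tested. Counting coding transcripts alone lowered the mean level of Dpysl4 from 280 to 144 CPM.

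**Figure D2:**
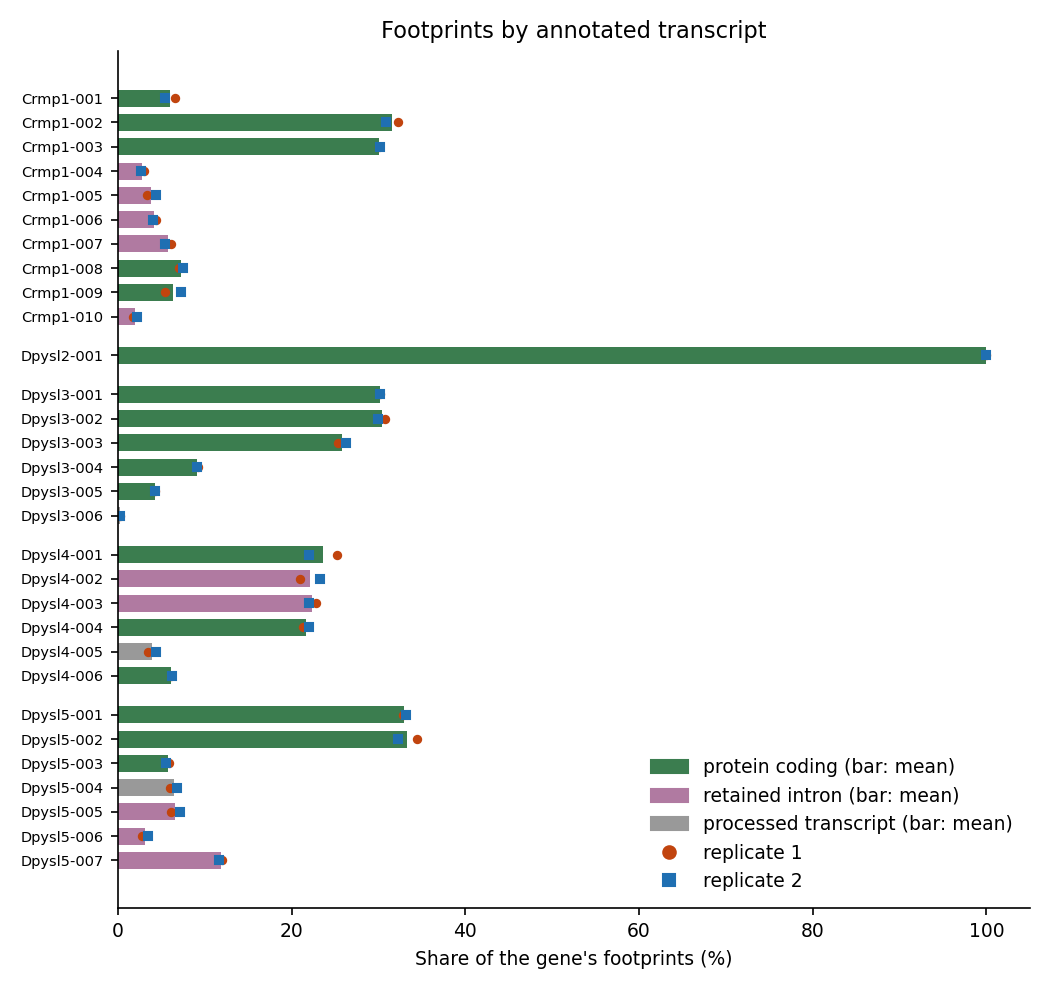
Share of each CRMP gene's footprints, in percent, on each of its annotated transcripts. Bars are the mean of 2 replicates coloured by the annotated class, and circles and squares are replicates 1 and 2. Dpysl2 has 1 transcript, Dpysl3 lies almost wholly on coding transcripts, and non-coding transcripts hold 48.5% of Dpysl4.

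Among the coding transcripts of a gene, counts broadly followed the length of the coding sequence, though not in every pair of transcripts. In Dpysl5 the coding sequence was 1695 nucleotides long in Dpysl5-001 and Dpysl5-002 and 294 in Dpysl5-003. The footprints per kb of coding sequence were nonetheless alike, at 183 ± 29.0 CPM per kb for Dpysl5-001, 186 ± 39.3 for Dpysl5-002 and 185 ± 37.9 for Dpysl5-003. Their highest and lowest values differed 1.02-fold, against 1.51-fold per kb of whole transcript.

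The same held for Dpysl4, whose 3 coding transcripts ranged from 34.02 to 38.5 CPM per kb of coding sequence, a 1.13-fold range, against 1.41-fold per kb of transcript. In Dpysl3, coding sequences from 311 to 2052 nucleotides had 240 to 309 CPM per kb of coding sequence, a 1.29-fold range, against 2.62-fold per kb of transcript. The untranslated 3' part of Dpysl3-001 is annotated at 3353 nucleotides and that of Dpysl3-002 at 44, yet these transcripts had equal counts over both libraries. Crmp1 was the exception, with a 1.64-fold range per kb of coding sequence and 1.32-fold per kb of transcript. Its lowest value was 151 ± 46.1 CPM per kb for Crmp1-001 and its highest 247 ± 42.5 for Crmp1-003. These values are divided among overlapping transcripts and so lie below the level of the whole gene.

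Crmp1, Dpysl3 and Dpysl4 each have complete coding transcripts of different length. Crmp1-002 has 114 more codons than Crmp1-003, and coding length alone would give it 54.5% of the footprints of the pair. It held 51.8% (49.5 to 54.1) in replicate 1 and 50.6% (49.01 to 52.1) in replicate 2. Dpysl3-001 has 113 more codons than Dpysl3-002 and held 49.5% (47.4 to 51.6) and 50.2% (48.8 to 51.7) of that pair. In these pairs the upper bounds for the long form lay below the share given by coding length in both libraries. Against Dpysl3-003, whose coding sequence is 115 codons shorter, Dpysl3-001 held 54.4% (52.2 to 56.6) and 53.5% (52.02 to 54.98), and both intervals held the 54.6% given by coding length. Dpysl4-004 has 21 more codons than Dpysl4-001 and held 45.8% (39.6 to 52.2) and 50.0% (46.0 to 54.0) of that pair. Both of its intervals held the 50.9% given by coding length.

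Dpysl3-002 and Dpysl3-003 differ by 2 codons, and Dpysl3-002 held 54.9% (52.7 to 57.04) and 53.3% (51.8 to 54.8) of their footprints. In Dpysl5 the equally long Dpysl5-001 and Dpysl5-002 divided their footprints evenly, at 48.8% (46.1 to 51.5) and 50.7% (48.8 to 52.5) for the first. How a fragment that matches several transcripts was assigned is not given in the sources used here, so these shares are not a measure of isoform use.

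Transcripts were also compared between the replicates by their share of the gene. Fisher's exact test, two-sided and adjusted by Benjamini-Hochberg over 36469 transcripts, called 0 of the 29 tested, where 0.0686% were called over all transcripts. At an unadjusted p under 0.05 there were 3, all of Crmp1, and the lowest adjusted p of Fisher's exact test was 0.264, for Crmp1-009 with 160 of 2961 and 473 of 6513 footprints.

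The remaining comparison was between the 2 libraries. The 5 genes were lower in replicate 2 than in replicate 1, by a two-sided exact binomial test against TMM-scaled library sizes (trimmed mean of M values), adjusted over 16427 genes. Of all genes tested 17.4% were called, 11.5% as lower and 5.95% as higher in replicate 2, so that 34.2% of the calls were higher. Scaled to library totals, 60.7% of the calls were higher and 7.47% of genes were called lower, because TMM lowered every log2 ratio by 0.13. The median log2 ratio of the members was -0.48, beside 0.0056 over all genes. This test sets 1 library against 1 other and covers counting noise alone. The common dispersion of edgeR's exact test, given next, was estimated from the same pair of libraries. The differences under test already enter it, so a lack of calls there does not show equal levels. With edgeR's exact test and a common dispersion, 0.067% of genes were called, all of them higher in replicate 2. That test called 0 of the members, with 1 (Dpysl2) at an unadjusted p under 0.05.

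Dpysl2 differed most, with a log2 ratio of -0.93 (95% interval -1.01 to -0.86) and an exact binomial adjusted p of 8.44e-125. Its level in replicate 2 was 0.523 times that in replicate 1, and its ratio lay at percentile 1.61 of all genes tested. Dpysl3 had a log2 ratio of -0.55 (-0.60 to -0.49), Crmp1 one of -0.48 (-0.55 to -0.42) and Dpysl5 one of -0.47 (-0.54 to -0.39). Dpysl4 had the smallest difference, a log2 ratio of -0.24 (-0.39 to -0.10) with an exact binomial adjusted p of 0.00896. With library totals its ratio was -0.12 and its exact binomial adjusted p 0.289, while the other 4 members were still called. The interval of Dpysl2 lay below those of the other 4 members.

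Highly counted genes were more often called. In the 10% of genes with the highest mean count, which held all 5 members, 39.3% were called lower in replicate 2, and the median log2 ratio was -0.10. Dpysl2 lay at percentile 1.46 of these genes, Dpysl3 at 11.99, Crmp1 at 16.0, Dpysl5 at 17.3 and Dpysl4 at 35.1. The ratio also fell with footprint density, to a median of -0.23 in the 10% of genes with the most footprints per nucleotide, where all 5 members belong. With that median subtracted, Dpysl2 stood at -0.70, Dpysl3 at -0.32, Crmp1 at -0.25 and Dpysl5 at -0.24, all still called, and Dpysl4 at -0.01 was not, where 9.85% of genes were called lower. With a smooth trend in density removed, Crmp1 at -0.05 also lost its call (exact binomial adjusted p of 0.387), and Dpysl2, Dpysl3 and Dpysl5 kept theirs at -0.63, -0.17 and -0.18, where 9.28% of genes were called lower.

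**Figure D3:**
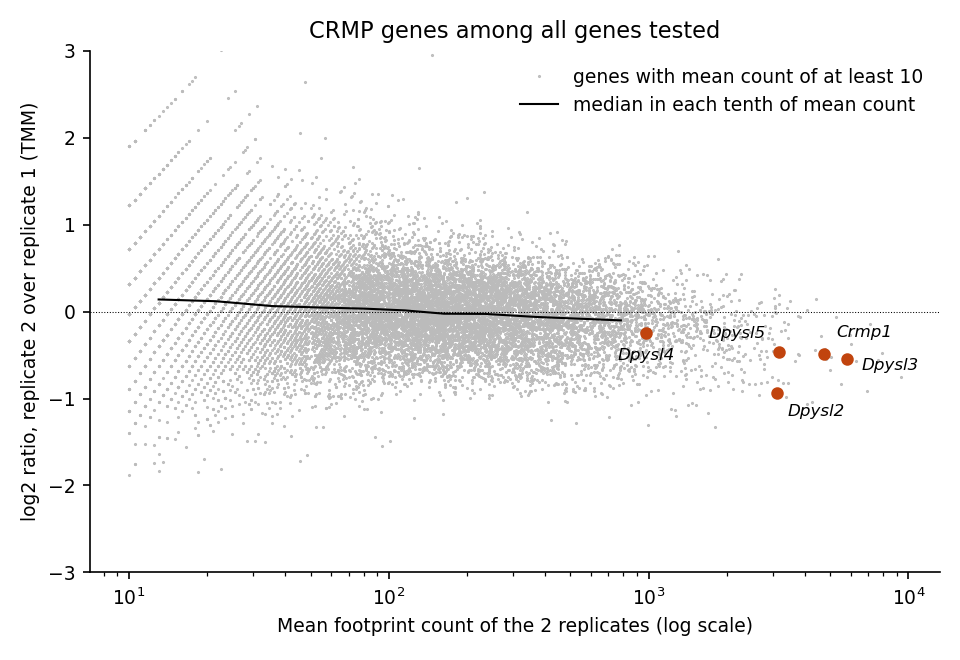
The log2 ratio of replicate 2 over replicate 1 after TMM scaling, against the mean footprint count on a log axis, for genes averaging 10 or more footprints (17 genes lie outside the plotted range of 3 in either direction). Red points are the CRMP genes and the line joins the medians of 10 equal groups of genes by count. All 5 members lie below 0, with Dpysl2 lowest at -0.93.

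Markers of young neurons moved in the same direction. Calls in this and the following lists are those of the exact binomial test. With edgeR's exact test no gene was called lower in replicate 2. Of the 8 markers, 7 were called lower in replicate 2 and 0 higher, where 11.5% of all genes and 39.3% of the tenth with the highest counts were called lower. Their median log2 ratio was -0.80 beside 0.0056 over all genes. The range was -1.08 to -0.03. Ncam1, a neural adhesion molecule, had the highest CPM, at 1332 ± 102, and a log2 ratio of -0.28. Per kb of coding sequence Ncam1 had a mean of 407 CPM, below Stmn1, named after its value was seen, at 2191. Gap43, a growth cone membrane protein, had the largest difference at -1.08. Of the mature neuron markers, 3 of 8 were called lower, with a median of -0.23, and of the astrocyte markers 2 of 8, with a median of -0.17. Of the red cell markers, 4 of 6 were called lower and 0 higher, with a median of -0.64. Those called were the globin gene pairs Hbb-bs and Hbb-bt, with 444 coding nucleotides each, and Hba-a1 and Hba-a2, with 429 each. How fragments that match both genes of a pair were assigned is not given, so these calls may not be separate observations. The remaining red cell markers, Alas2 at 0.54 and Slc4a1 at 0.12, lay above 0 and were not called. Microglial markers had 2 of 8 called lower and 1 higher, with a median of -0.33. Oligodendrocyte markers had 3 called higher and 3 called lower of 8, with a median of 0.25, and endothelial markers 1 each of 8, with a median of 0.30. In whole brain without matched RNA, fewer cells of a type, less RNA per cell and fewer ribosomes per RNA cannot be told apart. Nor can these be told from a technical difference between the 2 libraries. The part of young neurons in the CRMP difference was not tested.

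Semaphorin 3A receptors had fewer footprints per kb than Dpysl3, Crmp1, Dpysl2 and Dpysl5. The neural adhesion molecule L1cam, part of the receptor complex, was the member of this list with the highest CPM and had 164 and 170 CPM per kb of coding sequence. Over the list, means ran from 4.36 CPM per kb to 554 for Rac1, a small GTPase named after its value was seen. The receptor Plxna1 had 58.9 and 53.9 CPM per kb, and Nrp1, the co-receptor that binds the ligand, 31.5 and 26.1. Of 16 genes in the list, 7 were called lower in replicate 2 and 0 higher, with a median log2 ratio of -0.25. This count stands beside 11.5% called lower over all genes and 39.3% in the tenth with the highest counts. The largest difference among the called genes was that of Plxna4 at -0.53, and Nrp1 had a ratio of -0.40.

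Kinases and phosphatases that act on CRMPs had 6 of 15 tested genes called lower and 0 higher, with a median log2 ratio of -0.29, beside the same 11.5% and 39.3%. Camk2b, a subunit of a calcium-dependent kinase, had 477 and 545 CPM per kb, and Gsk3b, the kinase that acts on Dpysl2 after priming by Cdk5, had 273 and 271 CPM per kb. Neither was called, with log2 ratios of 0.07 and -0.14. Cdk5r2, an activating subunit of Cdk5, had the largest difference in the list at -0.85, with 252 and 152 CPM per kb.

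Among partners and cargo of CRMPs, 7 of 15 genes were called lower and 2 higher, with a median log2 ratio of -0.05. Over all genes 11.5% were called lower and 5.95% higher, and 39.3% were lower in the tenth with the highest counts. Ywhaz, a 14-3-3 protein, was the most abundant at 1294 ± 199 CPM and had a ratio of -0.44. Tubb3, the neuronal tubulin that also stands among the young neuron markers, had a ratio of -0.99, close to that of Dpysl2, with 1051 and 578 CPM per kb. Kif5a, a kinesin heavy chain, had a ratio of -0.52. The 2 genes called higher, named after their values were seen, were Cyfip1 at 0.51 and Kif5b, another kinesin heavy chain, at 0.29. With library totals, the median of this list was 0.07, the medians of the relay and kinase lists -0.12 and -0.16, and that of the CRMP genes -0.36, beside 0.13 over all genes.

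**Figure D4:**
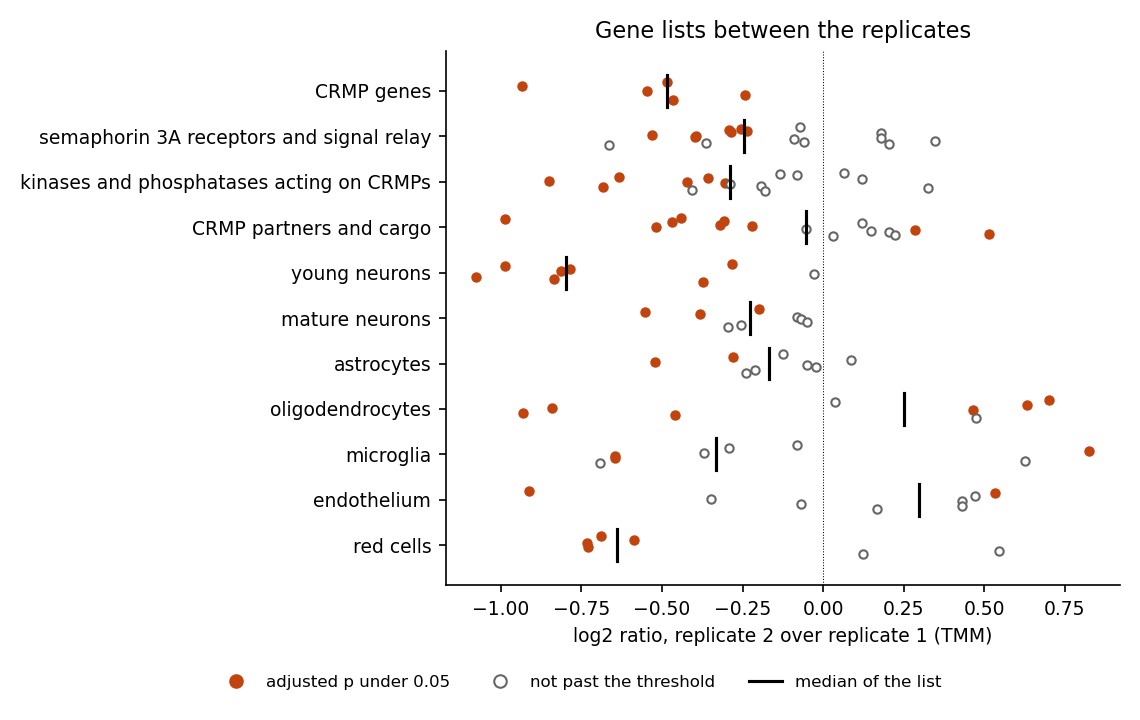
The log2 ratio of replicate 2 over replicate 1 after TMM scaling for the CRMP genes, 3 lists of related genes and 7 lists of cell type markers. Each point is a tested gene, filled where the exact binomial adjusted p was under 0.05, and bars are medians. The CRMP median is -0.48 and that of young neuron markers -0.80.

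Of 4 enzymes that make or break down pyrimidines, none reached the level of Dpysl4. Cad, which makes pyrimidines and holds a catalytic domain related to CRMPs, had 110 and 381 footprints, at 65.7 ± 9.53 CPM. Dpyd, which breaks pyrimidines down, had 17 and 63 footprints, at 10.5 ± 2.03 CPM, and neither was called. Dpys, the dihydropyrimidinase that gave the Dpysl genes their name, was singled out after its values were seen. Its footprints numbered 1 in the first library and 0 in the second, where up to 0.570 CPM could have gone unseen.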

How the data were processed

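The authors deposited 1 table of raw footprint counts per transcript, with annotated lengths. Per the submitters' processing notes, Trimmomatic 0.36, Bowtie2 2.2.6, SAMtools and the build GRCm38.p4 were used; the annotation release, the strand setting and the treatment of duplicates and of fragments matching several transcripts are not given in the sources used here.

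Symbols were taken from transcript names and counts were summed per gene. An exact binomial test, two-sided (scipy 1.17.1), set each gene's counts against TMM-scaled library sizes (edgeR 4.0.16), with Benjamini-Hochberg adjustment over genes averaging 10 or more footprints, a threshold of 0.05 and a prior of 0.5 CPM. A quasi-likelihood test needs a contrast, which 1 group does not give. This test and Fisher's exact test on transcript shares were tested on simulated counts. These held counting noise alone, so they cannot show how the tests behave with further variation between libraries. Library totals, DESeq2 1.42.0 size factors, other transcript choices, filters, priors and trend removal were alternatives. Members and lists were chosen with earlier results of these data known. Genes were named from the 2 per list with the highest CPM, up to 2 called genes per list with the largest difference, and the 2 nearest in level per member; not every gene this rule picks is reported here, and most marker lists are given by counts alone. Matched RNA was not analysed here, so levels are not translational efficiencies.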

Additional observations from a re-analysis of the deposited data

How the results depend on the processing

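No paired analysis was possible because the series has 1 group. Leaving out 1 replicate leaves no ratio to test, and with 2 values it cannot move a level or share by more than 1 SD. With coding transcripts only, levels were 1149 CPM for Crmp1, 144 for Dpysl4 and 678 for Dpysl5, and family shares 24.5% for Crmp1, 37.0% for Dpysl3, 3.11% for Dpysl4 and 14.5% for Dpysl5. With the highest transcript only, levels were 447 CPM for Crmp1, 526 for Dpysl3, 66.2 for Dpysl4 and 309.6 for Dpysl5, family shares were 19.2% for Crmp1, 42.02% for Dpysl2, 22.6% for Dpysl3, 2.86% for Dpysl4 and 13.4% for Dpysl5, and 1445 genes were called between the replicates in place of 2861. Family shares per kb of coding sequence were 24.3% for Crmp1, 30.0% for Dpysl3 and 19.7% for Dpysl5. Per kb of transcript, values were 463 CPM for Crmp1, 222 for Dpysl2, 318 for Dpysl3, 78.7 for Dpysl4 and 181 for Dpysl5. With coding counts over count-weighted coding lengths they were 1049 CPM per kb for Dpysl3, 90.4 for Dpysl4 and 428 for Dpysl5. Chosen after the data were examined, the shortest full coding length gave 821 CPM per kb for Crmp1, and coding counts over the coding length of the highest transcript, as in the main values, 557 for Crmp1, 83.8 for Dpysl4 and 400.2 for Dpysl5.

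All 5 log2 ratios stayed below 0 in every setting tried. The call of Dpysl4 was lost with library totals (-0.12), the highest transcript (-0.36), the density median removed (-0.012) and the smooth density trend removed (-0.086), and that of Crmp1 with the last (-0.045). With edgeR's exact test and a common dispersion, estimated from the same pair of libraries, 11 genes were called, with 719 at an unadjusted p under 0.05. None of the 11 was a member, at the same log2 ratios of -0.48 for Crmp1, -0.93 for Dpysl2, -0.55 for Dpysl3, -0.24 for Dpysl4 and -0.47 for Dpysl5. The cause of these changes was not tested, apart from the transcripts and lengths that each setting leaves out by its construction.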
